A study of Mus musculus with 10 samples.

Results

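The genes described here are 35 genes of the liver's extracellular matrix and of hepatic stellate cells, taken from a fixed list of fibrillar and basement membrane collagens, other matrix proteins and stellate cell markers. Of the 35, 34 had at least 1 probe set annotated to them alone, with 79 probe sets in all, out of 18193 such genes on the array. The expression of Fbn1 is not analysed here. After a filter on dim probe sets 33 of the 34 were among the 12736 genes tested, and Lox, which encodes the enzyme lysyl oxidase, was below it. Liver RNA of 10 mice labelled ApoE-/- was hybridised to Affymetrix mouse arrays, 1 mouse per array. The 5 control mice (replicates 11 to 15) carried an adenovirus for GFP, a fluorescent protein, and the other 5 (labelled dn-cJun, replicates 16 to 20) one for a dominant negative form of cJun, a subunit of the transcription factor AP-1. By their labels both groups share the ApoE-/- genotype and an adenoviral infection, and no uninfected mouse is among them. The age and strain of the mice, the dose and the time after infection are not given in the sources used here. Neither is the promoter that drives either cargo.

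Stellate cells lie between hepatocytes and the sinusoidal endothelium and store vitamin A. In injured liver they take on the features of myofibroblasts, with smooth muscle actin in the cytoskeleton, and they are the main source of fibrillar collagen in scar. TGF-beta is the main inducer of matrix genes in these cells and PDGF their main mitogen. Collagens are built from a trio of chains wound into a triple helix. Types I, III and V form fibrils, type IV forms the network of basement membranes together with laminins and nidogen, and type VI forms beaded filaments. AP-1 sites occur in the control regions of many matrix genes. Whole liver is mostly hepatocyte RNA, so a lower signal of a stellate cell gene cannot tell fewer stellate cells from less RNA per cell.

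The arrays differed in ways that bear on these genes. Apoe, the gene the labels give as lost, had a log2 signal of 10.25 in the controls and 15.66 on the dn-cJun-labelled arrays. The latter thus go against their genotype label and are named by label throughout. Apoe signal and virus label differ between the same 2 groups, so their parts in any difference below cannot be told apart. Controls 14 and 15 stood apart in sex-linked transcripts. Xist was at 13.71 and 13.63 on these and at 5.90 to 6.72 on the other 8 arrays, and the Y-linked Eif2s3y at 5.22 and 4.08 against 10.58 to 11.13. By these transcripts controls 14 and 15 read as female and the other 8 arrays as male, though the labels give no sex. Sex by transcript is thus not balanced between the groups. Where leaving out these 2 arrays moved the difference of a gene named here by over 1.5 times, the value without them is also given. Of the 6 hepatocyte markers, 5, among them Alb (albumin) and Ttr (transthyretin), were bright in both groups. Ass1, a urea cycle enzyme, was dimmer, at 8.35 ± 0.89 in the controls and 9.47 ± 0.73 on the dn-cJun-labelled arrays (SD, n = 5 each), a difference of 1.12 (SE 0.41, limma adjusted p = 0.220), and of 0.65 without controls 14 and 15. The summed signal of the 6 was 257740 to 272760 in the controls and 267612 to 279522 on the dn-cJun-labelled arrays. No value in the table was 0. The 3 prime to 5 prime log2 difference of Gapdh, a measure of RNA integrity, was -0.51 to -0.40 in the controls and -0.52 to -0.35 on the dn-cJun-labelled arrays (two-sided exact permutation p = 0.429, adjusted over 2 genes 0.429). For Actb, the other gene, the exact permutation p was 0.341 (adjusted 0.429), with a difference between the groups of 0.040.

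None of the 33 tested genes passed the threshold between the groups (limma, adjusted p under 0.05 over all 12736 genes), where 0.777% of all genes did, 0.345% higher and 0.432% lower. Log2 differences, the dn-cJun-labelled arrays minus control, ran from -0.87 for Ngfr to 0.42 for Col6a1, with 14 genes higher and 19 lower and a median of -0.058, against 0.0015 over all genes tested. The median absolute log2 difference was 0.18 for these genes and 0.14 for all genes. Ngfr, Pdgfrb and Col6a1 had an unadjusted p under 0.05. That is 3 of 33, beside 14.9% of all genes. By direction it is 1 higher and 2 lower, beside 7.42% and 7.47% of all genes. Groups were fully apart in 2 of 33, Col6a1 (higher) and Ngfr (lower), and in 4.22% of all genes, 2.1% higher and 2.13% lower. Neither share is a result about this set of genes. The plot of differences by class shows how wide the intervals were. For Des, the widest among tested genes, the 95% interval ran from -1.51 to 0.022, and for Dcn, the narrowest, from -0.29 to 0.046.

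**Figure D1:**
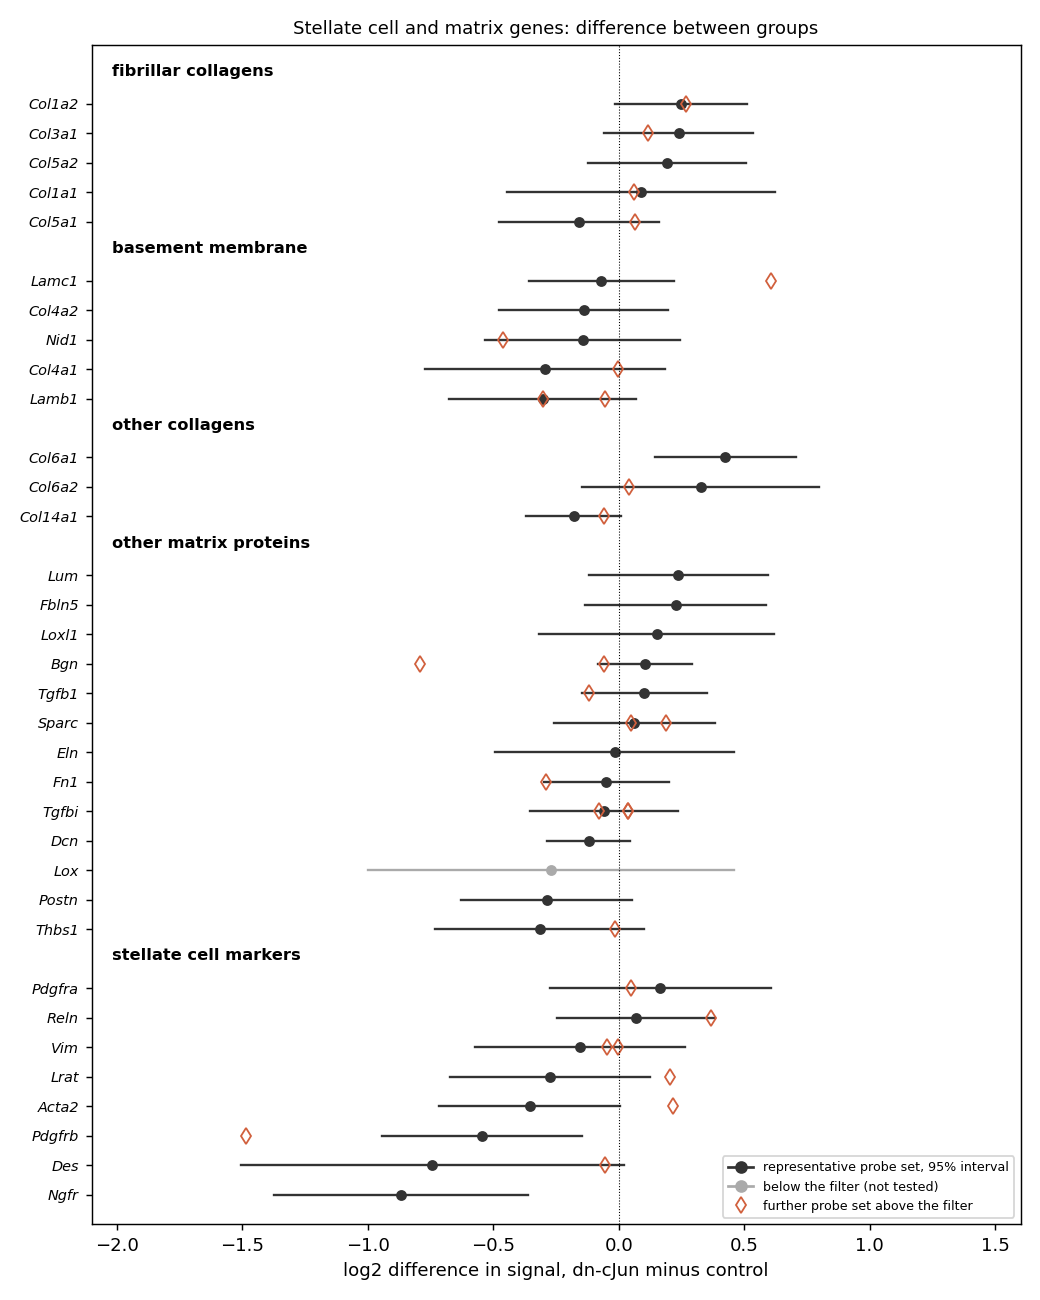
Log2 difference in signal, dn-cJun minus control, of each of 34 genes by class. Black points are the probe set that stands for a gene with its 95% interval (limma, 5 arrays a group), grey is Lox, below the filter, and open diamonds are further probe sets above the filter. Among tested genes the interval lies wholly below 0 for Ngfr and Pdgfrb and wholly above it for Col6a1, without adjustment for the number of genes.

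The classes differed in where their members lay, though no class can be tested from members chosen with results known. Of the stellate cell markers 6 of 8 were lower on the dn-cJun-labelled arrays, with a median log2 difference of -0.31. That median rests on the choice of probe sets, since it was -0.049 with the mean of each gene's probe sets. Ngfr, the lowest of the markers, fell below the filter in that setting and is not in that median. With the filter at the 60th percentile 6 markers were left, without Ngfr and Des, and the median was -0.21. It was -0.40 to -0.28 with 1 array left out. All 5 basement membrane genes were lower, with a median of -0.14. It was -0.29 to -0.096 with 1 array left out, the first of these without control 12 and the second without dn-cJun 16. Of the fibrillar collagens 4 of 5 were higher, with a median of 0.19. It was 0.11 to 0.26 with 1 array left out, lowest without control 12 and 0.12 without dn-cJun 19, and 0.075 with the mean of probe sets. Of the other collagens 2 of 3 were higher, with a median of 0.33, and of 0.15 without control 14. It was 0.041 with probe sets named _x_at or _s_at left out. The 12 other matrix proteins tested split evenly, 6 higher and 6 lower, with a median of 0.023, and of -0.062 to 0.079 with 1 array left out. Over all genes tested 6328 of 12736 were lower. Left unnormalised, the deposited values had a median over all genes of -0.19. The median of the fibrillar collagens then turned to -0.039 and that of the other matrix proteins to -0.14. Relative to that shift the medians were -0.34 for stellate cell markers, -0.16 for basement membrane, 0.15 for fibrillar collagens, 0.29 for other collagens and 0.054 for other matrix proteins.

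The mean of each class on each array, with every gene centred over the 10 arrays, shows how far these differences stood out from the spread among mice. The stellate cell markers spanned -0.18 to 0.40 in the controls and -0.33 to 0.039 on the dn-cJun-labelled arrays. The groups overlapped, because control 12 lay among the dn-cJun-labelled arrays. For basement membrane genes the ranges were -0.30 to 0.31 and -0.24 to 0.12, again with control 12 lowest of all 10. For fibrillar collagens they were -0.37 to 0.18 and -0.085 to 0.43, and here dn-cJun 19 was the highest and control 12 the lowest. For other collagens they were -0.25 to 0.090 and -0.028 to 0.26, and for other matrix proteins -0.22 to 0.18 and -0.11 to 0.085. In each of the 5 classes the groups overlapped. The SD was larger among the controls in every class, by the least in the other collagens. Controls 14 and 15 were above the gene's median over the arrays in 24 and 27 of 33 genes, controls 11 to 13 in 14, 7 and 16, and the dn-cJun-labelled arrays in 10 to 19. Control 12 was the lowest array in 9 of 33 genes and the highest in 0.

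**Figure D2:**
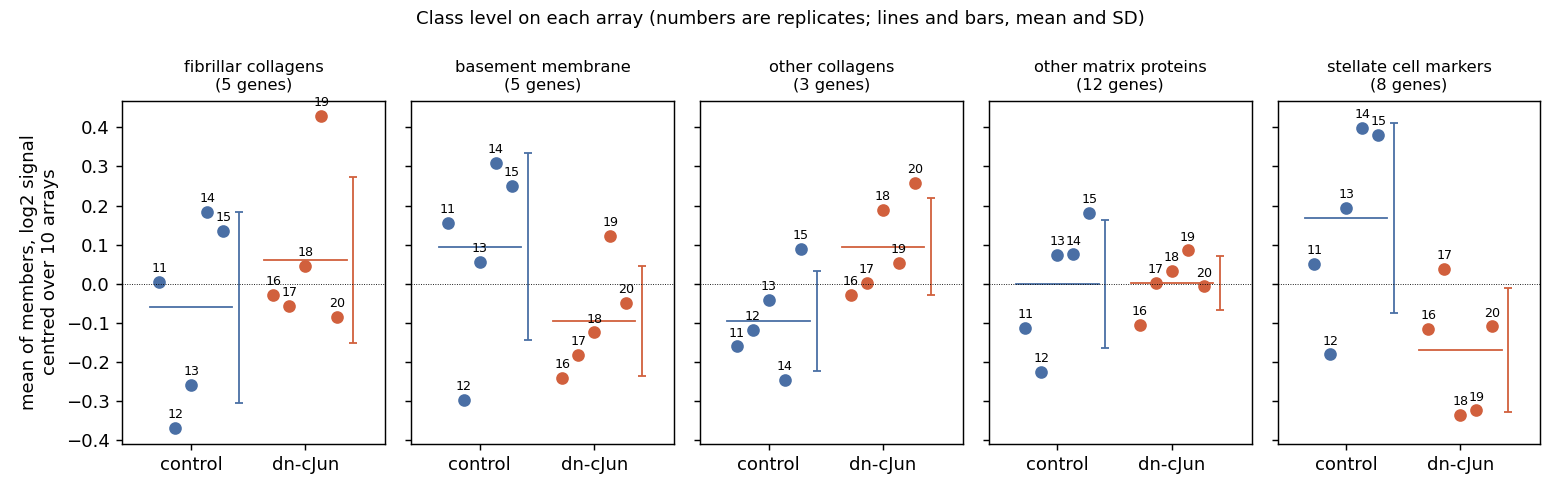
Mean log2 signal of the tested members of each class on each array, each gene centred over the 10 arrays. Points are arrays with their replicate number, horizontal lines the group mean and bars the SD of 5 arrays. Controls 14 and 15 are the highest of the stellate cell and basement membrane panels, control 12 is the lowest in the fibrillar, basement membrane and other matrix panels, and the 2 groups overlap in each.

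Among the stellate cell markers, Ngfr had the smallest p of all 33 genes. It encodes the p75 neurotrophin receptor, which stellate cells carry. Its log2 signal was 7.76, 7.29, 7.95, 7.93 and 7.80 in controls 11 to 15 and 7.0, 7.22, 6.96, 6.03 and 7.17 on arrays dn-cJun 16 to 20. Every dn-cJun-labelled array was below every control, and dn-cJun 19 was far below the rest. The means were 7.74 ± 0.27 and 6.88 ± 0.49 (SD, n = 5 each), a log2 difference of -0.87 (SE 0.23, limma adjusted p = 0.113), a 1.82-fold lower signal. The adjusted p was 0.0648 to 0.207 with 1 array left out. With the values as deposited it passed (-1.06, limma adjusted p = 0.0350), on a scale where the median of all genes was itself below 0. Both other Ngfr probe sets were below the filter, each at -0.19. The bases before the annotated start of Ngfr are given because it led the list. They lie on the minus strand at chr11:95587699-95587948 (GRCm38.p6, RefSeq) and hold neither of the motifs searched.

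Ngfr promoter: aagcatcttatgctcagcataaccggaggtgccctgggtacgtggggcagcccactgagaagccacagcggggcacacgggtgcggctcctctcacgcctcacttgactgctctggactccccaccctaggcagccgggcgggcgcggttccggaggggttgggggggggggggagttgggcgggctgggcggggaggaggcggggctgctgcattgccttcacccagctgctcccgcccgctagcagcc

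Pdgfrb encodes the PDGF receptor beta, which carries the mitogenic signal in stellate cells and also marks pericytes. Its brighter probe set gave 8.48, 7.83, 8.55, 8.85 and 8.86 in the controls and 7.83, 8.18, 7.89, 8.13 and 7.80 on the dn-cJun-labelled arrays. Control 12 lay at the level of the dn-cJun-labelled arrays and the other 4 controls lay above all of them. The log2 difference was -0.55 (SE 0.18, limma adjusted p = 0.186). The second probe set gave 6.10, 7.14, 6.65, 7.08 and 7.52 in the controls and 5.20, 5.16, 5.37, 5.24 and 6.09 on the dn-cJun-labelled arrays. Here the groups were apart, control 11 and dn-cJun 20 by a very small margin, and the log2 difference was -1.49 (SE 0.32). Its mean on the dn-cJun-labelled arrays, 5.41, was below the filter's level of 6.06, so it passed the filter only through the controls, where it was high. No test is read from it. With these probe sets averaged the difference was -1.02, but this mean includes the dim one, so no test is read from it either. With the brighter probe set alone Pdgfrb passed without control 12 (-0.71, limma adjusted p = 0.0310). Without controls 14 and 15 the difference was -0.32 (limma adjusted p = 0.492).

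Of the marker list's cytoskeletal genes, Acta2, Des and Vim each had a lower mean on the dn-cJun-labelled arrays, and none passed. Acta2, smooth muscle actin, was at 10.17, 9.21, 9.65, 9.62 and 9.64 in the controls and 9.22, 9.07, 9.14, 9.74 and 9.36 on the dn-cJun-labelled arrays. Control 11 was the highest, and control 12 and dn-cJun 19 crossed into the other group. The log2 difference was -0.36 (SE 0.17, limma adjusted p = 0.342). A further, dimmer Acta2 probe set gave 0.22, the opposite sign. Des encodes desmin, the intermediate filament of rodent stellate cells, and is given because of its size, after its values were seen. It was at 7.28, 6.26, 7.41, 7.45 and 7.39 in the controls and 6.76, 7.34, 5.65, 5.66 and 6.68 on the dn-cJun-labelled arrays. On dn-cJun 18 and 19 it was well below 4 of the controls, while dn-cJun 17 lay among them. The log2 difference was -0.74 (SE 0.35, limma adjusted p = 0.348), and the further probe set gave -0.053. Vim, the intermediate filament vimentin, was at -0.15 (SE 0.19) with 10.93 to 12.10 in the controls and 11.27 to 11.81 on the dn-cJun-labelled arrays, and the difference was 0.13 without controls 14 and 15. Tagln, the smooth muscle protein transgelin, is no marker of the list and had a log2 difference of -0.46 (SE 0.15, limma adjusted p = 0.184). It belongs to a list of further stellate and mesenchymal genes, of which 8 of 13 tested were higher, with a median of 0.068.

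The markers of the quiescent, vitamin A storing cell did not share one direction. Lrat, which esterifies retinol for storage, was at 9.06 to 9.74 in the controls and 8.55 to 9.60 on the dn-cJun-labelled arrays, a log2 difference of -0.27 (SE 0.18, limma adjusted p = 0.523), and of -0.10 without controls 14 and 15. The second Lrat probe set gave 0.20. Reln, the secreted glycoprotein reelin, which stellate cells make in liver, was at 10.49 to 11.36 and 11.02 to 11.46, a difference of 0.068 (SE 0.15), and of 0.17 without controls 14 and 15. Pdgfra, the receptor alpha of PDGF, was at 6.83 to 7.80 and 7.33 to 7.96, a difference of 0.17 (SE 0.20), which was 0.32 without them. The groups overlapped in each of the 3. Markers of other cell types were examined beside these genes. Of the Kupffer cell and macrophage markers 5 of 7 tested were lower and Cd5l, a scavenger receptor family protein that Kupffer cells release, fell by 0.57 (SE 0.11, limma adjusted p = 0.0323). Without controls 14 and 15 Cd5l was at -0.49 and did not pass (limma adjusted p = 0.105). The list's summed signal was 16419 to 23583 in the controls and 14466 to 17664 on the dn-cJun-labelled arrays. The summed signal of bile duct markers was 409 to 504 and 292 to 553, with 3 of 4 tested lower. Among these 3, Krt19 and Krt7 had means of 5.98 and 5.76 on the dn-cJun-labelled arrays, below the filter's level of 6.06. They passed the filter only through the controls, where they were high, so no direction is read from this count. Endothelial markers had 6 of 8 higher, with sums of 6469 to 7199 and 6963 to 7695. Of lymphocyte markers 3 of 5 were higher, and of mesothelial markers 3 of 3 were lower, at -0.18 to -0.043. Without controls 14 and 15 signs turned for the lymphocyte genes Cd79a (to -0.29) and Ms4a1 (to -0.18) and the mesothelial Msln (to 0.036). They also turned for the macrophage gene Clec4f (to 0.16) and the endothelial Cdh5 (to -0.00027). No list but that of the Kupffer cell and macrophage markers held a gene past the threshold, and in each list the summed signals overlapped. Their part in the stellate cell values was not tested.

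**Figure D3:**
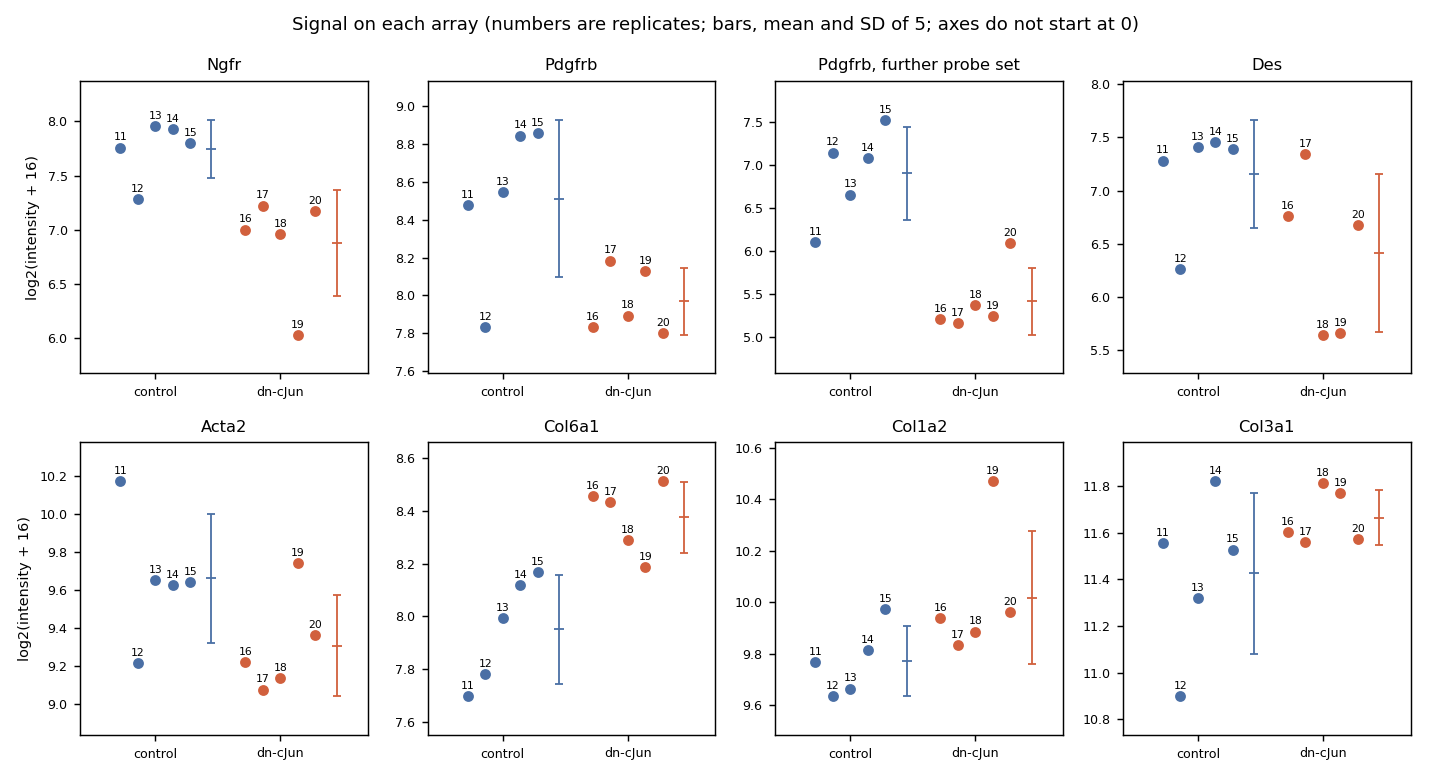
Quantile-normalised log2(intensity + 16) of selected genes on each array, with replicate numbers beside the points and the mean and SD of 5 arrays as bars. Ngfr and Col6a1 separate the 2 groups, as does the further Pdgfrb probe set, which passed the filter only through the controls. Control 12 lies low for the brighter Pdgfrb probe set, Des, Acta2 and Col3a1, but not for the further Pdgfrb probe set. Array dn-cJun 19 lies high for Col1a2. Axes do not start at 0 and differ between panels.

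Both listed chains of collagen VI had a higher mean on the dn-cJun-labelled arrays, and neither passed. Col6a1, its alpha 1 chain, was at 7.70, 7.78, 7.99, 8.12 and 8.17 in the controls and 8.46, 8.43, 8.29, 8.19 and 8.51 on the dn-cJun-labelled arrays. Every dn-cJun-labelled array was above every control, the lowest of the former by a small margin. The means were 7.95 ± 0.21 and 8.38 ± 0.13 (SD, n = 5 each), a log2 difference of 0.42 (SE 0.13, limma adjusted p = 0.152), a 1.34-fold higher signal from a single probe set. The adjusted p was 0.0762 to 0.424 over all alternatives run, and the difference was 0.55 without controls 14 and 15. Col6a2, the alpha 2 chain, was at 8.56, 8.44, 8.21, 7.57 and 8.55 in the controls and 8.22, 8.16, 8.98, 8.62 and 8.98 on the dn-cJun-labelled arrays. Here the groups overlapped broadly, with control 14 far below the rest, and the difference was 0.33 (SE 0.22, limma adjusted p = 0.522), or 0.19 without controls 14 and 15. The name of this Col6a2 probe set marks probes that can cross-hybridise, and a further one gave 0.041. Col6a3, the third chain and not in the list of 35, had a difference of 0.29 (SE 0.12, limma adjusted p = 0.295). Without controls 14 and 15 it was 0.44. Col14a1, a collagen that sits on the surface of fibrils, was on the low side. It was at 10.24, 10.41, 10.66, 10.55 and 10.53 in the controls and 10.22, 10.39, 10.27, 10.34 and 10.27 on the dn-cJun-labelled arrays. Only control 11 lay among the dn-cJun-labelled arrays, at their low end, and the difference was -0.18 (SE 0.087, limma adjusted p = 0.360), with -0.061 from its further probe set above the filter. With the values as deposited it passed (-0.39, limma adjusted p = 0.0375), and with the mean of its probe sets it was at 0.12.

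Promoters were searched because cJun acts through AP-1 sites. Of the 35 listed genes 23 had an entry, Fbn1 among them, 26 promoters in all, and the 250 bases before the start were read on both strands for TGACTCA, to which AP-1 binds, and TGACGTCA, which cJun binds with ATF partners. Neither motif contains the other. Among these 23 genes only Col6a1 had TGACTCA, 1 of 26 promoters, beside 4.46% of all 32851 promoters. That count is near the share of all promoters and is no result about these genes. The listed genes without an entry were not searched. TGACGTCA was in 0 of 26, beside 1.55% of all. The Col6a1 window is printed because it holds the match, whose first base lies 90 bases before the start, and capitals mark it. It is on the minus strand at chr10:76726045-76726294 (GRCm38.p6, RefSeq). A match is a description of the letters, not of a bound site.

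Col6a1 promoter: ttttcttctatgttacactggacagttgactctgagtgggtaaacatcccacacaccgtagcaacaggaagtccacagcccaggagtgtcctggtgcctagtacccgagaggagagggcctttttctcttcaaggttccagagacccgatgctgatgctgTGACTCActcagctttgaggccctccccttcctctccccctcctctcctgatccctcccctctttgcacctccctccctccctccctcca

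Of the fibrillar collagens, the bulk of scar matrix, Col5a1 had a lower mean on the dn-cJun-labelled arrays and the other 4 a higher one, and none passed. Col1a1, the alpha 1 chain of type I collagen, was at 8.54, 7.74, 7.78, 8.39 and 8.36 in the controls and 8.02, 8.11, 8.27, 9.14 and 7.70 on the dn-cJun-labelled arrays. Array dn-cJun 19 was the highest of all 10 and dn-cJun 20 the lowest, so the groups overlapped entirely, with a difference of 0.088 (SE 0.25, limma adjusted p = 0.902) and a 95% interval of -0.45 to 0.62. Without dn-cJun 19 that difference was -0.13, and without controls 14 and 15 it was 0.23. Col1a2, the alpha 2 chain, was at 9.77, 9.64, 9.66, 9.82 and 9.97 and 9.94, 9.83, 9.89, 10.47 and 9.96. Only control 15 overlapped with the dn-cJun-labelled arrays, and dn-cJun 19 was again the highest. The difference was 0.25 (SE 0.12, limma adjusted p = 0.367), and 0.13 without that array. A further Col1a2 probe set gave 0.27. Col3a1, type III collagen, was at 11.56, 10.90, 11.32, 11.82 and 11.53 in the controls and 11.60, 11.56, 11.81, 11.77 and 11.57 on the dn-cJun-labelled arrays. The latter lay close together, inside the range of the controls, and control 12 was the lowest, with a difference of 0.24 (SE 0.14, limma adjusted p = 0.444). It was 0.11 without control 12.

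Type V collagen, which starts fibrils and sets their diameter, gave opposite signs for its chains. Col5a1 was at 8.43, 7.84, 8.12, 8.57 and 8.49 in the controls and 8.10, 7.96, 8.23, 8.25 and 8.11 on the dn-cJun-labelled arrays, a difference of -0.16 (SE 0.15, limma adjusted p = 0.667). A further Col5a1 probe set above the filter gave 0.063. Col5a2 was at 8.02, 8.33, 8.12, 8.62 and 8.63 and 8.49, 8.54, 8.32, 8.81 and 8.53, a difference of 0.19 (SE 0.15, limma adjusted p = 0.589). In both chains controls 14 and 15 were the highest controls and the groups overlapped. Without these controls the 5 fibrillar genes were all higher on the dn-cJun-labelled arrays, by a median of 0.33 (Col5a1 by only 0.0016), and 3 of them had an unadjusted p under 0.05, beside 13.7% of all genes in that fit. Col3a1 was then at 0.40 (SE 0.13, limma adjusted p = 0.204), Col5a2 at 0.38 and Col1a2 at 0.33. None of the 5 passed there either, and a count of 3 in 5 genes is no result about the class. Col5a3, a further type V chain from the list of other matrix genes, was at 8.28, 8.81, 8.85, 7.95 and 7.44 in the controls and 8.95, 9.07, 9.21, 9.05 and 9.10 on the dn-cJun-labelled arrays. Every dn-cJun-labelled array was above every control, controls 14 and 15 were the lowest, and the difference was 0.81 (SE 0.23, limma adjusted p = 0.126). Without those 2 it was 0.43 (SE 0.15, limma adjusted p = 0.221).

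Basement membrane genes were all slightly lower on the dn-cJun-labelled arrays, and none passed the threshold. Col4a1, the alpha 1 chain of type IV collagen, was at 10.37, 9.56, 10.14, 10.66 and 10.83 in the controls and 9.65, 9.86, 9.81, 10.49 and 10.27 on the dn-cJun-labelled arrays. Controls 14 and 15 were the highest and control 12 the lowest of the 10, and the difference was -0.29 (SE 0.22, limma adjusted p = 0.583). It was -0.0060 without controls 14 and 15, and a further probe set gave -0.0046. Col4a2, its partner chain, was at 9.43, 9.39, 9.65, 9.78 and 9.70 and 9.02, 9.30, 9.29, 9.86 and 9.79. Arrays dn-cJun 19 and 20 were the highest here, dn-cJun 16 was the lowest, and the difference was -0.14 (SE 0.16, limma adjusted p = 0.728), or -0.040 without controls 14 and 15. Lamb1, the beta 1 chain of laminin, was at 7.35, 7.21, 7.92, 7.67 and 7.67 and 7.49, 7.15, 7.22, 7.37 and 7.07, a difference of -0.30 (SE 0.17, limma adjusted p = 0.437), and controls 11 and 12 overlapped with the dn-cJun-labelled arrays. Lamc1, laminin gamma 1, was at -0.070 (SE 0.13), and at -0.042 without controls 14 and 15, with ranges of 7.75 to 8.19 and 7.73 to 8.09, and its further probe set, whose control mean of 5.85 was below the filter's level, gave 0.61. Nid1, nidogen, which links the laminin and collagen IV networks, was at -0.14 (SE 0.18), and at -0.014 without controls 14 and 15, with ranges of 9.21 to 10.28 and 9.43 to 9.90. Without controls 14 and 15 all 5 were still lower, but with a median of only -0.040.

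Chains of one collagen were compared across the 10 arrays, since they are built into the same molecule. Pairs of genes that share no molecule were not run beside them, so the correlations are not shown to be particular to chain partners. For Col4a1 and Col4a2, which lie head to head in the genome, Pearson's r was 0.79 (permutation p = 0.00848, adjusted over 4 pairs 0.0339) and Spearman's rho 0.76 (permutation p = 0.0147, adjusted 0.0588). Without the 2 arrays farthest from the Col4a1 median r was 0.87, and without controls 14 and 15 it was 0.79 (adjusted permutation p = 0.0954). For Col1a1 and Col1a2 r was 0.73 (permutation p = 0.0262, adjusted 0.0524) but rho only 0.30 (permutation p = 0.408, adjusted 0.559). Without dn-cJun 19 and 20, the arrays farthest from the Col1a1 median, r was 0.55, so part of the relation rests on those 2. For Col5a1 and Col5a2 r was 0.14 and rho 0.26 (permutation p = 0.701 and 0.469, adjusted 0.711 and 0.559). For Col6a1 and Col6a2 r was 0.14 and rho 0.21 (permutation p = 0.711 and 0.559, adjusted 0.711 and 0.559). Leaving out the 2 farthest arrays gave r of -0.11 and 0.37 for these pairs. As deviations from the group means r was 0.81 for Col1a1 and Col1a2 and 0.78 for Col4a1 and Col4a2 (adjusted permutation p = 0.0179 and 0.0179), and 0.34 for type V and -0.36 for type VI.

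**Figure D4:**
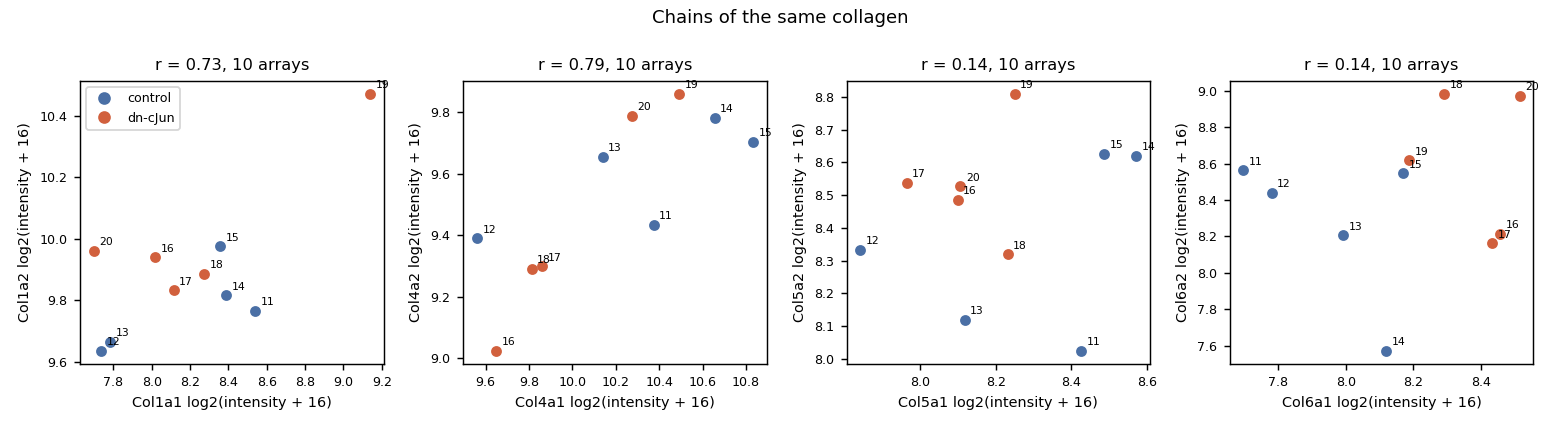
Log2(intensity + 16) of one chain against its partner on the 10 arrays, blue for controls and orange for dn-cJun, with replicate numbers. Type IV chains vary together over the arrays, the type I relation leans on dn-cJun 19 at the upper right, and types V and VI show little relation.

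The other matrix proteins showed no shared direction. The matricellular proteins Postn and Thbs1 had the smallest p of this class. Postn, periostin, a secreted protein of healing tissue, was at 9.36, 9.03, 9.73, 9.97 and 9.69 in the controls and 9.16, 9.57, 9.24, 9.20 and 9.16 on the dn-cJun-labelled arrays. Array dn-cJun 17 lay above the other 4 of its group and controls 11 and 12 lay below it, with a difference of -0.29 (SE 0.16, limma adjusted p = 0.421). The difference was -0.10 without controls 14 and 15. Thbs1, thrombospondin 1, an activator of latent TGF-beta, was at 7.59, 7.09, 7.75, 7.29 and 7.61 and 7.14, 7.47, 7.32, 7.16 and 6.68. Array dn-cJun 20 was the lowest and the groups overlapped otherwise, with a difference of -0.32 (SE 0.19, limma adjusted p = 0.474). Tgfb1 itself, the ligand, was at 8.74 to 9.13 and 8.77 to 9.22, a difference of 0.10 (SE 0.12), and Tgfbi, a matrix protein that TGF-beta induces, at -0.058 (SE 0.14). Sparc, which binds collagen and calcium, was at 0.062 (SE 0.15). Fn1, fibronectin, which hepatocytes also secrete, was at -0.050 (SE 0.12) with ranges of 13.50 to 14.06 and 13.58 to 14.10. Its further probe set gave -0.29, with the groups apart by a very small margin.

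Among the small proteoglycans, which bind fibrils, Dcn (decorin) was at 12.77, 13.03, 13.04, 13.04 and 12.88 in the controls and 12.83, 12.94, 12.80, 12.65 and 12.94 on the dn-cJun-labelled arrays. Control 11 was the lowest control, the groups overlapped, and the difference was -0.12 (SE 0.077, limma adjusted p = 0.501). Lum (lumican) was at 0.24 (SE 0.17), and at 0.42 without controls 14 and 15. Bgn (biglycan) gave an example of probe sets that disagree. Its brightest probe set was at 0.10 (SE 0.087) with overlapping groups, and one of its further probe sets, whose name marks probes that can cross-hybridise, was at 10.65, 11.08, 10.65, 11.24 and 11.20 in the controls and 10.32, 9.99, 10.02, 9.81 and 10.72 on the dn-cJun-labelled arrays. Only dn-cJun 20 reached the lowest controls there, and the difference was -0.79 (SE 0.17, limma adjusted p = 0.0541 over 27022 probe sets, of which 0.692% passed). The third gave -0.061. None of the elastic fibre genes passed. Eln, elastin, was at -0.017 (SE 0.22), Fbln5, fibulin 5, at 0.23 (SE 0.17) and Loxl1, a cross-linking enzyme, at 0.15 (SE 0.22). Lox, below the filter and so not tested, had a difference of -0.27 and log2 signals of 5.08 to 6.63 in the controls and 5.26 to 6.17 on the dn-cJun-labelled arrays. Over all 34 genes, 30 had further probe sets, 45 in number, and 19 of the 45 had the opposite sign to the one that stands for the gene. Of the 29 above the filter 9 did, in a set of 23 genes.

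Genes that process collagen or carry the signals to make it gave no call either. Of 13 tested enzymes and chaperones of collagen processing, 8 lay higher and 5 lower at a median of 0.11, and 0 passed (limma), with 2 at an unadjusted p under 0.05, 1 in each direction. Over all genes 14.9% had such a p, 7.42% higher and 7.47% lower, and the counts given here for these lists stand beside those shares. These were P4hb, a subunit of prolyl hydroxylase, at 0.18 (SE 0.052, limma adjusted p = 0.132), and Colgalt1, which adds galactose to collagen, at -0.22 (SE 0.074, limma adjusted p = 0.189). For P4hb every dn-cJun-labelled array was above every control. Plod2, among the 5 lower, had a mean of 5.90 on the dn-cJun-labelled arrays, below the filter's level. It passed the filter only through the controls. Of 14 TGF-beta pathway genes 11 were higher and 3 lower, with a median of 0.036 and 0 past the threshold (limma), 1 with an unadjusted p under 0.05. Tgfbr2, the receptor that binds the ligand, was at 11.10, 10.77, 10.76, 10.53 and 10.35 in the controls and 11.07, 11.23, 10.95, 10.97 and 11.30 on the dn-cJun-labelled arrays. Control 11 lay among the latter, controls 14 and 15 were the lowest, and the difference was 0.40 (SE 0.13, limma adjusted p = 0.160), or 0.23 without these 2 (limma adjusted p = 0.422). Smurf2, a ubiquitin ligase of the pathway, was at 0.17 (SE 0.080). Of 15 further matrix genes 8 were higher and 7 lower, with a median of 0.049. None passed, and Col5a3 and Col6a3 were among those with an unadjusted p under 0.05. Fbln1, fibulin 1, was at 0.95 (SE 0.32), and Mfap2, a microfibril protein, at 1.09 (SE 0.44). Their control means of 5.85 and 5.59 were below the filter's level. They passed the filter only through the group where they were high and are given with no test. Fbln1 and Mfap2 count among the 8 higher. Tnc, counted among the 7 lower, passed only through the controls, with a mean of 5.95 on the dn-cJun-labelled arrays. Of 13 further stellate and mesenchymal genes 8 were higher and 5 lower, with a median of 0.068. None passed, Tagln had the only unadjusted p under 0.05, and Gfap, a filament protein of stellate cells, was at 0.61 (SE 0.38), and at 0.37 without controls 14 and 15.

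The sign of the list's median turned without controls 14 and 15. In that fit 18 of 33 genes were higher and 15 lower, with a median of 0.10 against 0.0068 over all 12758 genes tested, and again no gene passed (limma), beside 0.408% of all genes. An unadjusted p under 0.05 was reached by 7 of 33, beside 13.7% of all genes. They were Col6a1, Col3a1, Col5a2, Col1a2, Lum and Bgn, each higher, and Ngfr, at -0.78. The share of all genes by direction was not taken in that fit, and this count is no result about this set of genes. Differences among the other matrix proteins that moved by over 1.5 times were then 0.21 for Bgn, 0.27 for Loxl1, 0.14 for Fbln5, 0.18 for Sparc, 0.18 for Tgfb1 and -0.064 for Eln. Fn1 and Tgfbi turned sign, to 0.10 and 0.17. The stellate cell markers then had 5 of 8 lower with a median of -0.21, and the basement membrane genes 5 of 5. The order of the class medians between stellate cell markers and fibrillar collagens was the same with and without these arrays, and the stellate cell markers were the lower.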

How the data were processed

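The authors deposited probe set intensity on a linear scale, per the labels and the values. The software and scaling are not given in the sources used here. Trizol extraction is labelled for control 11 alone. Of 45101 probe sets, 34945 had 1 symbol, 932 several and 9160 none, and 64 were array controls. Since array medians spanned 0.50 in log2, log2(intensity + 16) was quantile normalised here, and correlations between arrays were 0.944 to 0.965. The brightest single-symbol probe set stood for a gene. A minimum at the 40th percentile kept 12736 genes, and a gene bright in 1 group alone can pass it. limma 3.58.1 in R 4.3.3 (lmFit, then eBayes with trend) compared the groups, two-sided, adjusted by Benjamini-Hochberg over all genes at 0.05. Differences on this log2 scale understate those of dim genes, and precision is bounded by 5 arrays a group. Chain pairs had 100000 permutations, RNA quality all splits of the arrays. The fit was tested on simulated data with independent normal noise and no effect of sex or array. That test does not cover such effects in these arrays.

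The genes and lists were chosen with earlier results of these data known. Array values are printed for the 3 smallest p of each class and for collagen partners, and of each further list the 2 smallest p are named. Des, Mfap2, Col6a3, further probe sets and cell type genes were chosen after their values were seen. Alternatives varied the scaling, the pseudocount (1, 64), the minimum (none, 60th percentile), the choice of probe sets, the eBayes options, array weights, the threshold (0.01, 0.1) and the arrays, leaving out each, or controls 14 and 15, or giving these a term.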

Additional observations from a re-analysis of the deposited data

Results flagged for a closer look

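In 10 of 102 groups of 5 arrays, 1 array stood apart from the other 4 by more of the group's range than chance allows in about 5% of groups. Array dn-cJun 19 was high in Col1a2 (10.47, the other 4 at 9.83 to 9.96) and in the mean of the fibrillar collagens (0.43, the other 4 at -0.09 to 0.05), and low in Ngfr (6.03, the other 4 at 6.96 to 7.22). Control 12 was low in Des (6.26, the other 4 at 7.28 to 7.45), in Sparc (10.998, the other 4 at 11.52 to 11.71) and in the macrophage gene Cd5l (13.05, the other 4 at 13.45 to 13.56). Array dn-cJun 20 was high in Fn1 (14.10, the other 4 at 13.58 to 13.72) and in Reln (11.46, the other 4 at 11.02 to 11.08). Array dn-cJun 17 was high in Postn (9.57, the other 4 at 9.16 to 9.24). Control 13 was low in Colgalt1 (11.33, the other 4 at 11.48 to 11.53). Of these, 7 were single members of the 35 genes, among 68 such groups examined.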

How the results depend on the processing

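No paired analysis was possible because the replicate numbers do not repeat between the groups. Of 755 combinations of 33 genes with 23 alternatives, 703 kept both the sign and the side of the threshold, 47 turned sign and 5 passed the threshold. The count of genes past the threshold over the whole array, 99, was unstable. The deposited scale gave 490, equal array medians 65, and averaged probe sets 44. The count was 9 in eBayes without trend, 52 without controls 14 and 15, 156 with a term for them, 187 with every probe set, 8 and 250 at thresholds of 0.01 and 0.1, and 13 (without dn-cJun 17) to 199 (without control 12) with 1 array left out. The split of higher against lower calls was 44 against 55, but 22 against 468 with the values as deposited, 20 against 45 with equal array medians and 13 against 39 without controls 14 and 15. Among the 35 genes 3 passed with the values as deposited (Ngfr at -1.06, Pdgfrb at -0.77 and Col14a1 at -0.39). With 1 array left out 0 to 1 passed. Pdgfrb also passed with the mean of probe sets, which includes its dim one, so no test is read from that. Class medians moved with the values as deposited, to -0.039 for fibrillar collagens, -0.36 for basement membrane, 0.098 for other collagens, -0.14 for other matrix proteins and -0.53 for stellate cell markers. The median of the other collagens, only 3 genes, was 0.18 with the mean of probe sets, 0.041 without _x_at and _s_at probe sets, 0.19 both without controls 14 and 15 and with a term for them, and 0.15 to 0.41 with 1 array left out. That of the other matrix proteins was 0.16 in both of these fits. That of the stellate cell markers was -0.049 with the mean of probe sets, where Ngfr was below the filter and left out. Signs turned with the values as deposited for Col1a1 at -0.14, Col5a2 at -0.039, Bgn at -0.095, Fbln5 at -0.0040, Loxl1 at -0.054, Sparc at -0.14, Tgfb1 at -0.12, Reln at -0.13 and Pdgfra at -0.040. With equal array medians Fn1 was at 0.018. With the mean of probe sets the signs turned for Lamc1 at 0.27, Col14a1 at 0.12, Dcn at 0.066, Bgn at -0.25, Eln at 0.076, Fbln5 at -0.10, Loxl1 at -0.069, Tgfb1 at -0.0080 and Pdgfra at -0.049. Without _x_at and _s_at probe sets they turned for Tgfbi at 0.038 and Acta2 at 0.22, and with array weights for Sparc at -0.0083 and Reln at -0.0061. Without controls 14 and 15 they turned for Col5a1 at 0.0016, Fn1 at 0.10, Tgfbi at 0.17 and Vim at 0.13, and with a term for these arrays for Col5a1 at 0.0020, Fn1 at 0.10, Tgfbi at 0.17 and Vim at 0.13. With 1 array left out the ranges that crossed 0 were -0.13 to 0.096 for Eln, -0.074 to 0.14 for Reln, -0.0021 to 0.25 for Pdgfra, -0.13 to 0.23 for Col1a1, -0.062 to 0.16 for Sparc, -0.14 to 0.015 for Fn1 and -0.15 to 0.045 for Tgfbi. Pair correlations were 0.79 for type IV and -0.24 for type V without controls 14 and 15, 0.71 for type I and -0.016 for type VI with equal array medians, and 0.81 and -0.36 for the same pairs as deviations from the group means. The adjusted permutation p of type IV was 0.0954 in the first of these, and that of type I was 0.0442 and 0.0179 in the others. The cause of these shifts was not tested. Genes with dim probe sets, such as Lox and Ngfr, are limited by signal over background, which the table does not give.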
